A study of Mus musculus with 6 samples.

Results

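Genes that have been proposed to mark stem or progenitor cells of gastrointestinal and skin epithelia were compared between mouse esophagus and stomach organoids. The set holds 10 genes, Lrig1, Tnfrsf19, Cd44, Ngfr, Prom1, Bmi1, Mex3a, Olfm4, Iqgap3 and Cd24a. They were chosen by name, and every non-control probe that the array files assign to them was used, which gave 17 of 55681 distinct probes and 10 of 34298 gene names. Of the 10 genes, 5 have 1 probe, 4 have 2 probes and Cd44 has 4. Not all of them encode surface proteins, since Bmi1, Mex3a and Iqgap3 encode intracellular proteins and Olfm4 a secreted one, so they are called proposed markers rather than surface markers.

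Stem cell markers of an epithelium are genes whose messenger RNA or protein is enriched in cells that divide and renew the tissue. The stratified squamous epithelium of the esophagus is renewed from its basal layer, whereas the glands of the gastric corpus are renewed from the isthmus and, after injury, from cells of the gland base. Several of the markers are receptors or adhesion molecules that were first used to sort such cells from intestine, skin or tumors, and none is restricted to stem cells in every tissue.

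Organoids, which are three-dimensional cultures grown from epithelial cells in a gel, were made from the esophagus and the stomach of mice 1, 2 and 4 and labelled as untreated controls at passage 0. There were 3 esophagus arrays (stratified tissue) and 3 stomach arrays (columnar tissue), 1 of each per mouse number, all harvested on day 8 except the stomach organoids of mouse 4, harvested on day 7. The labels give both tissues the mouse numbers 1, 2 and 4, and equal numbers were taken as the same animal, which the study's methods do not state. The methods name wild-type C57BL/6 female mice, and no transgene or deletion is given for any of the 6 arrays. Esophagus cultures were started from dissociated cells and received forskolin, and stomach cultures were started from isolated corpus glands and received WNT3A and R-spondin1 conditioned medium and gastrin. Both media held B27, N2, EGF, noggin, FGF-10, N-acetylcysteine, nicotinamide, a TGF-β receptor kinase inhibitor and a ROCK inhibitor. Tissue, way of seeding and medium therefore cannot be told apart in any difference given here. Bulk RNA was measured, so a larger share of cells of a type and more RNA per cell cannot be told apart either.

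The labelled tissues were checked with 8 markers each, using the scanner software's flag for spots well above background, which means clearly brighter than the local background. A probe that lacks that flag on every array of a tissue has no measured level there, and a fold against it is given as at least the stated size. All 8 squamous markers were well above background in all esophagus cultures, where stomach cultures had 1 to 6 of them. All 8 gastric columnar markers were well above background in all stomach cultures, where esophagus cultures had 4 or 5 of them. The summed linear level of the 8 squamous markers on a stomach array reached at most 0.842% of the lowest esophagus array, and that of the 8 gastric markers on an esophagus array at most 1.2% of the lowest stomach array. The brightest Trp63 probe was the one squamous marker called higher in stomach. Only the brightest probe of a gene was used for this check, so no direction is given for Trp63 as a gene. Without that probe, a choice made after its values were seen, the summed linear level of the other 7 squamous markers on the stomach arrays was 0.0578% to 0.0921% of the lowest esophagus array. Of 9 fibroblast and smooth muscle markers, 0 to 2 passed on any array. Of 6 immune cell markers, 3 passed on every array, with a summed linear level of 8620 to 15200 in stomach and 1890 to 2850 in esophagus. Most of that sum is Itgam, an integrin of myeloid cells, which was 6.14-fold higher in stomach (limma adjusted p = 0.000662), whereas Ptprc, the common leukocyte antigen, passed on none of the 6 arrays. What these markers contribute to the results was not tested. Between 45.5% and 51.1% of the non-control spots of an array were well above background, 5 of the 6 arrays shared a slide and a scan, and the esophagus array of mouse 4 was alone on another, so its slide cannot be told apart from that mouse's esophagus culture.

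All values are log2 intensities from the deposited table, and a difference is the esophagus mean minus the stomach mean, fitted with limma over all probes. A probe was called when its Benjamini-Hochberg adjusted p was below 0.05. At this threshold 4 member probes were called higher in esophagus, against 5.94% of all 55681 probes, and these were the Ngfr probe and 3 of the 4 Cd44 probes. Another 4 were called higher in stomach, against 6.22% of all probes, and these were both Prom1 probes, the Cd24a probe and 1 of the 2 Tnfrsf19 probes. The other 9 probes were not called, and 5 genes, Lrig1, Bmi1, Mex3a, Olfm4 and Iqgap3, had no probe called. The median difference over the 17 probes was -0.03, beside 0.02 over all probes. The methods give a threshold of p below 0.05 and a 1.5-fold change without saying whether p was adjusted. With unadjusted p, 11 member probes passed, beside 9.28% of all probes higher in esophagus and 8.85% higher in stomach.

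**Figure D1:**
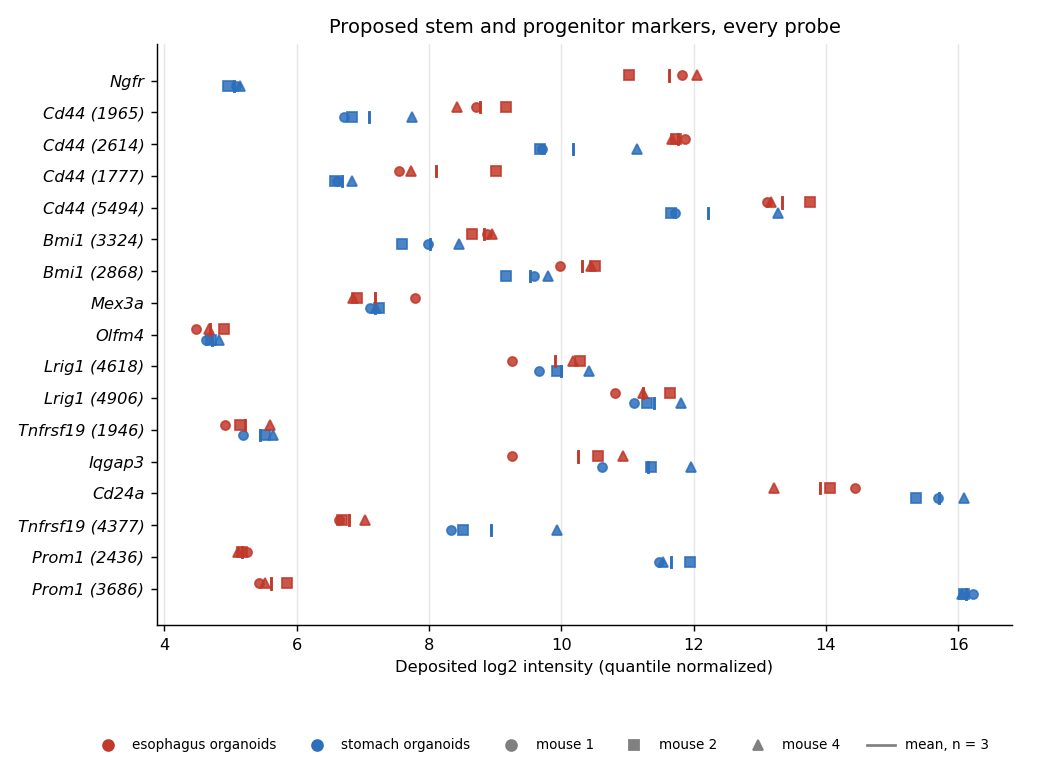
Deposited log2 intensity (x axis) of each of the 17 probes (y axis, with the first base of the probe in its transcript where a gene has several), 1 point per array, colored by tissue and shaped by mouse, with a short line at each mean (n = 3). The tissue means of Ngfr and the 2 Prom1 probes lie over 6 log2 units apart, whereas the points of Lrig1, Mex3a and Olfm4 overlap, and positions of different probes are not comparable as levels of RNA.

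The esophagus and stomach values did not overlap for 10 of the 17 probes. All 3 esophagus values lay above all 3 stomach values for 6 probes, which 15.2% of all probes also showed, and all 3 stomach values lay above all 3 esophagus values for 4 probes, which 13.4% of all probes showed. The members without overlap that were not called are the 2 Bmi1 probes.

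**Figure D2:**
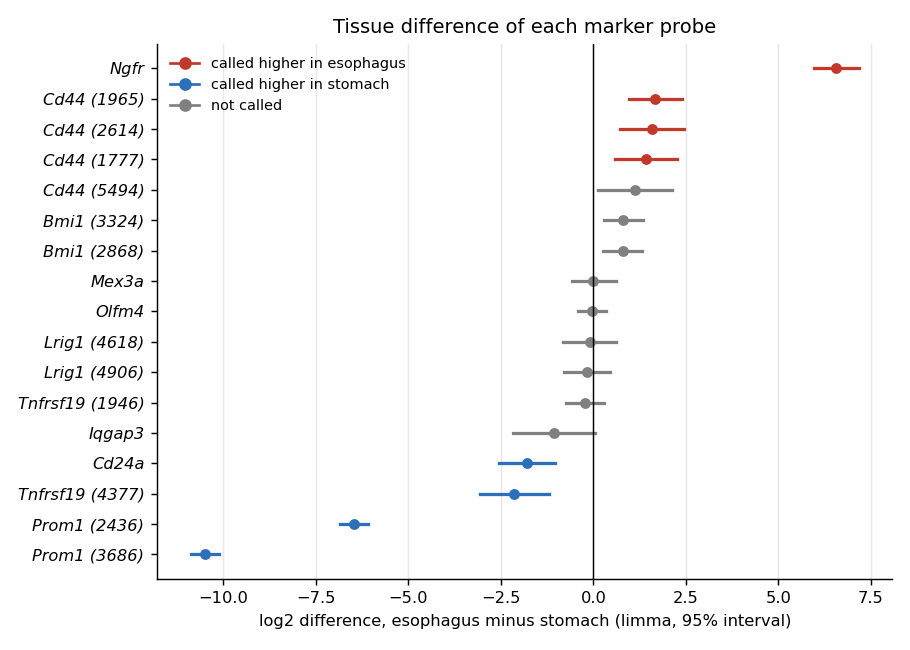
Esophagus minus stomach log2 difference of each probe (x axis) with its 95% confidence interval from limma (3 arrays per tissue), colored by call. The differences run from -10.51 for the Prom1 probe from base 3686 to 6.57 for Ngfr, and the intervals of all Lrig1, Mex3a, Olfm4 and Iqgap3 probes include 0.

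Ngfr encodes the low-affinity neurotrophin receptor p75, a member of the TNF receptor superfamily that is known from neurons, Schwann cells and basal keratinocytes. Its probe lies in the 3′ untranslated region at chr11:95430211-95430270 (mm9, minus strand) and was printed in 10 spots per array, which were averaged. It read 11.82, 11.02 and 12.05 in the esophagus organoids of mice 1, 2 and 4. It read 5.09, 4.96 and 5.14 in the stomach organoids of the same mice. All esophagus values lay over 5 log2 units above all stomach values, and on no stomach array was the probe well above background. The difference was 6.57 (SE 0.26, limma adjusted p = 2.69e-06), which makes Ngfr at least 95-fold higher in esophagus. That bound was 43.7-fold with a normexp offset of 50 and 256-fold with scaling to the 75th percentile of each array. It kept its call in all 13 distinct alternatives with an adjusted p of at most 0.000262, and within mouse numbers the differences were 6.74, 6.06 and 6.91.

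Markers of neurons and glia, which also carry this receptor, were examined beside it. The glial marker Sox10 was well above background on none of the 6 arrays. Over the 8 markers of neurons and glia, 2 to 4 passed the background limit in esophagus and 3 to 5 in stomach, and their summed linear level was 6300 to 11700 in esophagus and 12400 to 35800 in stomach. Their part in the Ngfr difference was not tested.

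Among 15 other genes of the neurotrophin pathway, 1 was called higher in esophagus and 2 were called higher in stomach, beside 7.15% and 7.7% of all gene names by their brightest probe. The count in esophagus was 2 without the stomach array of mouse 4 or the esophagus array of mouse 2. The median difference of the 15 was 0.11, beside 0.03 over all gene names. Nradd, a death domain protein related to p75, was higher in esophagus by 2.18 (SE 0.21, limma adjusted p = 0.000345). Higher in stomach were Bex1, an adapter that binds p75, with -4.86 (SE 0.28, limma adjusted p = 2.09e-05), and Sort1, the sortilin co-receptor for proneurotrophins, with -3.45 (SE 0.34, limma adjusted p = 0.000431). The high-affinity receptor Ntrk3 was well above background on none of the arrays, and Ntrk2 differed by 0.90 without being called (limma adjusted p = 0.0931). The genes whose centred values over the 6 arrays lay nearest to Ngfr, of 18474 considered, were the ERBB ligand Nrg1 (root mean square distance 0.34), Ppp2r2c (0.35) and Hoxc5 (0.37).

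Tnfrsf19, also known as Troy, is a receptor of the same superfamily and is known as a WNT target expressed in intestinal and gastric stem cells. Its probe from base 4377 (chr14:61582873-61582932, mm9) read 8.33, 8.51 and 9.94 in the stomach organoids of mice 1, 2 and 4. It read 6.64, 6.68 and 7.04 in the esophagus organoids. All stomach values lay above all esophagus values, with the stomach organoids of mouse 4 standing highest. The difference was -2.14 (SE 0.40, limma adjusted p = 0.0113), which is 4.4-fold higher in stomach, and it was called in all 13 alternatives. Only the stomach medium was supplemented with WNT3A and R-spondin1. The part of these factors in the difference was not tested. It cannot be told apart from that of tissue, seeding or the other medium components.

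The second Tnfrsf19 probe, from base 1946 (chr14:61589667-61589726, mm9), was dim in both tissues. It was well above background on 0 esophagus arrays and 1 stomach array, with 4.92 to 5.60 in esophagus and 5.19 to 5.64 in stomach, and its difference of -0.23 (SE 0.22) was not called (limma adjusted p = 0.616). With that probe near background in both tissues, no size is given for the gap between the 2 Tnfrsf19 differences, and which transcripts each probe reads was not tested.

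Of 15 other TNF receptors and their adapters, 2 were called higher in esophagus and 4 higher in stomach, beside 7.15% and 7.7% of all gene names, with a median of -0.01 beside 0.03. With a normexp offset of 50 or processed intensities the stomach count was 3. It was also 3 without any 1 stomach array and without the esophagus array of mouse 2 or 4. The esophagus count was 3 without the esophagus array of mouse 1 or 4. Higher in stomach were Tnfrsf11a, the receptor RANK, with -2.81 (SE 0.16, limma adjusted p = 2.11e-05), and Tnfrsf1b, the second TNF receptor. Tnfrsf1b was below this detection limit in all 3 esophagus cultures, which gives a stomach level at least 5.07-fold higher (limma adjusted p = 0.000138). Higher in esophagus were the adapter Traf5 with 2.76 (SE 0.34, limma adjusted p = 0.0014) and the first TNF receptor Tnfrsf1a with 1.04 (SE 0.15, limma adjusted p = 0.00329). Nearest to Tnfrsf19 by the same measure were Slc41a2 (distance 0.13), Fgf1 (0.16) and Gm21818 (0.16).

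Lrig1 is a transmembrane protein that restrains ERBB receptors and marks quiescent stem cells in skin and intestine. Its probe from base 4906 read 10.81, 11.64 and 11.23 in esophagus and 11.10, 11.29 and 11.81 in stomach, in the order of mice 1, 2 and 4. Its probe from base 4618 read 9.25, 10.28 and 10.17 in esophagus and 9.66, 9.94 and 10.42 in stomach. The tissues overlapped for both probes, which lie at chr6:94554523-94554582 and chr6:94554811-94554870 (mm9). The differences were -0.17 (95% interval -0.79 to 0.45, limma adjusted p = 0.779) and -0.10 (95% interval -0.83 to 0.62, limma adjusted p = 0.895), so the intervals hold differences of up to 0.83 in size toward stomach. Both probes were higher in esophagus in mouse 2 and higher in stomach in mice 1 and 4, and the tissue difference of the first minus that of the second was not called (-0.07, SE 0.20, limma adjusted p = 0.913 over 21383 probe pairs, of which 6.27% were called).

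Of the other LRIG proteins, Lrig2 differed by 0.24 (limma adjusted p = 0.672) and Lrig3 by 0.02 (limma adjusted p = 0.952), and neither was called. Among the ERBB receptors, Egfr was higher in esophagus by 1.11 (SE 0.19, limma adjusted p = 0.0077). Erbb3 was higher in stomach with -1.28 (SE 0.15, limma adjusted p = 0.00103), as was Erbb2 with -1.20 (SE 0.18, limma adjusted p = 0.00439), and the call of Erbb2 was lost with scaling to the 75th percentile (limma adjusted p = 0.0701). Erbb4 was well above background on none of the 6 arrays. Over these 6 genes the median difference was 0.02, with 1 called higher in esophagus and 2 higher in stomach, beside 7.15% and 7.7% of all gene names.

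Prom1 encodes prominin-1, or CD133, a glycoprotein of membrane protrusions that contains several transmembrane segments and is widely used to sort progenitor and tumor cells. Its 2 probes read different stretches of the transcript, the one from base 2436 within the coding sequence (chr5:44397410-44397469, mm9, minus strand) and the one from base 3686 near the 3′ end (chr5:44384861-44384920). The coding probe is printed because it reads the part that encodes the protein, and it is copied from the array files, 5′ to 3′.
Prom1 probe from base 2436: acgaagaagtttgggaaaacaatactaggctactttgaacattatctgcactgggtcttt

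The Prom1 probe from base 3686 read 16.22, 16.08 and 16.05 in stomach and 5.44, 5.86 and 5.53 in esophagus, in the order of mice 1, 2 and 4. The coding probe read 11.48, 11.94 and 11.53 in stomach and 5.25, 5.17 and 5.12 in esophagus. Both probes were high in every stomach array and at or close to background in every esophagus array, with the first well above background on 2 of 3 esophagus arrays and the coding probe on none. The difference was -10.51 (SE 0.16, limma adjusted p = 4.31e-08) for the probe from base 3686. It was -6.47 (SE 0.17, limma adjusted p = 3.69e-07) for the coding probe, which makes Prom1 at least 88.6-fold higher in stomach by that probe. This bound was 44.1-fold with a normexp offset of 50 and 287-fold with quantile normalized processed intensities. Both were called in all 13 alternatives, with an adjusted p of at most 3.87e-05.

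The coding probe gives only a bound in esophagus, so no size is given for the gap between the 2 Prom1 differences. Prom2, the other prominin, differed in the opposite direction. It read 9.93, 10.98 and 10.34 in esophagus and 9.22, 8.61 and 9.47 in stomach, with a difference of 1.32 (SE 0.32, limma adjusted p = 0.033). Its call was lost in 7 of 13 alternatives, among them the block for mouse (limma adjusted p = 0.072) and the fits without the stomach array of mouse 1 or 2 (0.0997 and 0.12) or the esophagus array of mouse 2 or 4 (0.0855 and 0.0636). By this distance the closest genes to Prom1 were Anxa10 (distance 0.32), the gastrokine Gkn3 (0.35) and the aspartic protease Ctse (0.36).

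Cd44 encodes the main cell surface receptor for hyaluronan, a long sugar chain of the extracellular matrix, and its messenger RNA is spliced into a standard form and into forms that carry variable exons. The 4 probes lie on the minus strand of chromosome 2 (mm9). Those from bases 1777 (chr2:102677971-102678030) and 1965 (chr2:102672645-102672704) lie in the variable region, the one from base 2614 (chr2:102654278-102654337) covers the end of the coding sequence, which the standard and variable forms share, and the one from base 5494 (chr2:102651398-102651457) lies in the 3′ untranslated region. The 3 coding stretches are shown 5′ to 3′ because they set the part that only variable forms contain beside the part that both contain. They are copied from the array files, with the stop codon in capitals and the bases after it left out.
Cd44 probe from base 1777: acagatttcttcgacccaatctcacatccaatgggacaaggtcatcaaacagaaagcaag
Cd44 probe from base 1965: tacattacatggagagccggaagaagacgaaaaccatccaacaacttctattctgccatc
Cd44 probe from base 2614: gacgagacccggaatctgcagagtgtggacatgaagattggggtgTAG

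In the order of mice 1, 2 and 4, the probe from base 1777 read 7.55, 9.01 and 7.73 in esophagus and 6.61, 6.58 and 6.84 in stomach. The probe from base 1965 read 8.71, 9.16 and 8.43 in esophagus and 6.71, 6.84 and 7.74 in stomach. All esophagus values lay above all stomach values for both variable region probes, and all 4 Cd44 probes were well above background on all 6 arrays. The differences were 1.42 (SE 0.36, limma adjusted p = 0.0418) and 1.67 (SE 0.31, limma adjusted p = 0.0103), which are 2.68-fold and 3.19-fold higher in esophagus.

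The probe from base 2614 read 11.87, 11.74 and 11.67 in esophagus and 9.71, 9.68 and 11.14 in stomach. The probe in the 3′ untranslated region read 13.11, 13.75 and 13.17 in esophagus and 11.72, 11.66 and 13.27 in stomach. By both probes the stomach organoids of mouse 4 stood over 1 log2 unit above the other 2 stomach cultures, and by the last one they overlapped with the esophagus. The differences were 1.59 (SE 0.37, limma adjusted p = 0.0307) for the coding end and 1.12 (SE 0.43) for the 3′ untranslated region, which was not called (limma adjusted p = 0.153).

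**Figure D3:**
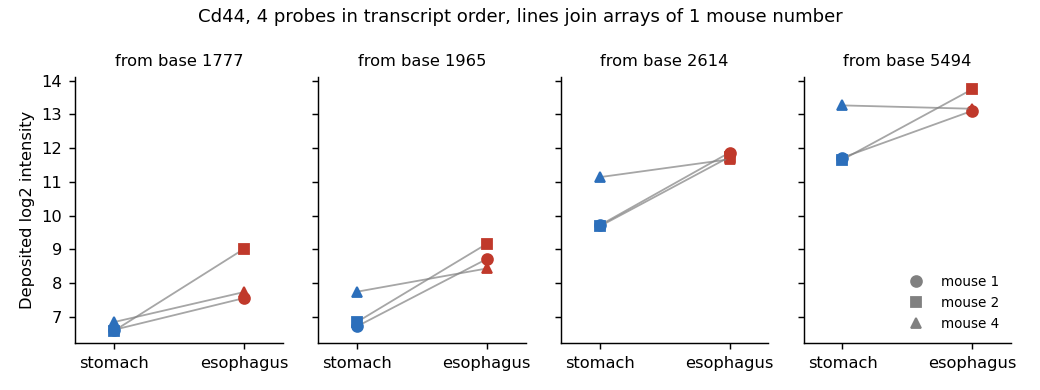
Deposited log2 intensity (y axis) of the 4 Cd44 probes, in transcript order from left to right, in stomach and esophagus organoids, with a line joining the 2 arrays of each mouse number. The lines of mice 1 and 2 climb toward esophagus by all 4 probes, and the line of mouse 4 is flatter than the other 2 in the panels from bases 1965, 2614 and 5494.

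Within mouse 4 the esophagus minus stomach differences of the 4 probes, in transcript order, were 0.89, 0.70, 0.53 and -0.09. In mouse 1 they were 0.94, 2.0, 2.17 and 1.38, and in mouse 2 they were 2.43, 2.32, 2.06 and 2.09. Cd44 was thus higher in esophagus by all 4 probes in mice 1 and 2 and by 3 of the 4 in mouse 4. Without the stomach array of mouse 4, the adjusted p values of the 4 probes were 0.0672, 0.00225, 0.000287 and 0.00448 by limma, so the 3′ untranslated region probe was then called and the probe from base 1777 was not. Mouse and day of harvest cannot be told apart for that array. On it the 7 squamous markers other than Trp63 reached 0.0921% of the lowest esophagus level, and 5 of them were well above background. On the stomach arrays of mice 1 and 2 they reached 0.0617% and 0.0578%, with 3 and 0 well above background. The part of squamous cells in the Cd44 values was not tested. Without the stomach array of mouse 1 none of the 4 Cd44 probes was called (limma adjusted p from 0.052 to 0.406), nor without that of mouse 2 (0.0556 to 0.415).

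The call of the probe from base 1777 was also lost with the block for mouse (limma adjusted p = 0.0511), a normexp offset of 50 (0.0979) and processed intensities (0.0988). Processed intensities also ended the call of the probe from base 1965 (limma adjusted p = 0.0604). That of the probe from base 2614 was lost without the esophagus array of mouse 1 (limma adjusted p = 0.0723), 2 (0.0861) or 4 (0.0597), with a normexp offset of 50 (0.0715) and with processed intensities (0.132). The direction was the same in all 13 alternatives for each of the 4 probes. Averaged over its 4 probes, Cd44 was higher in esophagus by 1.45 (SE 0.33, limma adjusted p = 0.0286). The tissue difference of the 3′ untranslated region probe minus that of the probes from bases 1777, 1965 and 2614 was -0.30 (95% interval -1.20 to 0.60), -0.55 (-1.08 to -0.01) and -0.46 (-0.99 to 0.07), with limma adjusted p values of 0.777, 0.263 and 0.353. The other Cd44 pairs were tested in a fit of every pair of probes of a gene, added after the first results were seen, in which 4.18% of 42286 pairs were called. There the tissue difference of the probe from base 1777 minus that of the coding end was -0.16 (95% interval -1.16 to 0.83, limma adjusted p = 0.915), and that of the probe from base 1965 minus the coding end was 0.09 (-0.46 to 0.64, limma adjusted p = 0.919). The 2 variable region probes differed by -0.25 (-0.93 to 0.43, limma adjusted p = 0.779). None of the 6 Cd44 pairs was called in that fit by limma, and 1 of them, from bases 1965 and 5494, had an unadjusted p below 0.05 (limma adjusted p = 0.296).

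Of 14 genes that make, cut or bind hyaluronan, bind CD44 or splice it, 5 were called higher in esophagus and 2 higher in stomach, beside 7.15% and 7.7% of all gene names, with a median of 0.57 beside 0.03. Without the stomach array of mouse 1 these counts were 4 and 1, and with scaling to the 75th percentile 6 and 1. Higher in esophagus were moesin (Msn, 2.89, SE 0.31, limma adjusted p = 0.000636), which links CD44 to actin, and the membrane protease Mmp14 (2.48, SE 0.18, limma adjusted p = 7.89e-05), which can cleave it. Ezrin (Ezr), a relative of moesin, was higher in stomach (-1.13, SE 0.21, limma adjusted p = 0.0114), and its call was lost with scaling to the 75th percentile (0.129) and without the stomach array of mouse 1 (0.061). Osteopontin (Spp1), a ligand of CD44, passed the background limit on no esophagus array, which gives at least 490-fold more in stomach (limma adjusted p = 1.64e-06). The splicing regulators Esrp1 and Esrp2, which favor variable exons of Cd44, differed by 0.62 (limma adjusted p = 0.15) and -0.01 (0.989) and were not called. The genes nearest to the brightest Cd44 probe were Ctsc (distance 0.15), Slc3a2 (0.17) and Kcnrg (0.18), and Slc3a2 encodes the heavy chain of the CD98 amino acid transporter.

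Cd24a encodes a small, heavily glycosylated protein anchored in the outer membrane leaflet, used with CD44 to sort epithelial progenitors. Its probe (chr10:43303706-43303765, mm9) read 15.69, 15.36 and 16.08 in the stomach organoids of mice 1, 2 and 4 and 14.44, 14.06 and 13.22 in the esophagus organoids. All 6 arrays were well above background, and all stomach values lay above all esophagus values. The difference was -1.80 (SE 0.33, limma adjusted p = 0.00959), which is 3.49-fold higher in stomach, and it was called in all 13 alternatives with an adjusted p of at most 0.0468. Within mouse numbers it was -1.25, -1.30 and -2.86. The mean differences of Cd44 and Cd24a thus lay in opposite directions, but no Cd44 probe was called in all 13 alternatives, as Cd24a was. The genes nearest to Cd24a over the 6 arrays were Smagp (distance 0.17), Shisa4 (0.18) and Bach2 (0.20).

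Olfm4 encodes a secreted glycoprotein and is a marker of crypt base stem cells in the human intestine. Its probe (chr14:80421398-80421457, mm9) read 4.48, 4.91 and 4.68 in esophagus and 4.63, 4.71 and 4.83 in stomach, and it was well above background on none of the 6 arrays. No fold is given for it. Among 7 other olfactomedin genes, 1 was called higher in esophagus and 1 higher in stomach, beside 7.15% and 7.7% of all gene names, with a median of 0.03 there and over all. Olfm1 was higher in esophagus by 1.23 (SE 0.26, limma adjusted p = 0.0193), a call that was lost with the block for mouse (0.052), with processed intensities (0.0647) and without the esophagus array of mouse 1 or 2 (0.0523 and 0.0633) or the stomach array of mouse 1 or 2 (0.09 and 0.0891). Olfml2b passed the background limit on no esophagus array, which gives at least 1.95-fold more in stomach (limma adjusted p = 0.00315). Olfml3 differed by 0.49 and was not called (limma adjusted p = 0.611), and Olfm2, Olfm3, Olfml1 and Olfml2a were well above background on none of the 6 arrays.

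Bmi1 encodes a subunit of polycomb repressive complex 1, which places ubiquitin on histone H2A, and it is known for restraining the Cdkn2a locus and for marking reserve stem cells. Both probes lie in the 3′ untranslated region on the plus strand of chromosome 2 (chr2:18607531-18607590 and chr2:18607987-18608046, mm9). The probe from base 2868 read 9.98, 10.51 and 10.45 in esophagus and 9.59, 9.16 and 9.80 in stomach, in the order of mice 1, 2 and 4. The probe from base 3324 read 8.88, 8.65 and 8.96 in esophagus and 7.99, 7.60 and 8.45 in stomach. By each probe all esophagus values lay above all stomach values, and every mouse had the higher value in esophagus.

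The Bmi1 differences were 0.79 (SE 0.22, limma adjusted p = 0.0607) and 0.81 (SE 0.23, limma adjusted p = 0.0611), which missed the threshold, with 95% intervals of 0.27 to 1.31 and 0.28 to 1.35. The mean of the 2 probes passed it (0.80, SE 0.20, limma adjusted p = 0.0427), as did the probe from base 3324 with the block for mouse (limma adjusted p = 0.0424). Both probes also passed when dim probes were left out (0.0495 and 0.0488) and without the stomach array of mouse 4 (0.0443 and 0.0154). The probe from base 2868 passed without the esophagus array of mouse 1 as well (limma adjusted p = 0.0352).

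Of 19 other genes of the complex and Cdkn2a, 3 were called higher in esophagus and 3 higher in stomach, beside 7.15% and 7.7% of all gene names, with a median of 0.30 beside 0.03. These counts fell to 1 and 1 without the stomach array of mouse 1, without the esophagus array of mouse 2 and with scaling to the 75th percentile, to 2 and 1 without the stomach array of mouse 2, and to 1 and 2 with processed intensities. Yaf2, a subunit of the variant complexes, was higher in esophagus by 1.79 (SE 0.24, limma adjusted p = 0.00229), and the chromobox subunit Cbx2 by 0.82 (SE 0.20, limma adjusted p = 0.0325). Higher in stomach were Cbx6 with -1.62 (SE 0.36, limma adjusted p = 0.0231) and Pcgf5, a paralog of Bmi1, with -1.07 (SE 0.15, limma adjusted p = 0.00307). The other called genes were Kdm2b in esophagus (0.71, SE 0.18, limma adjusted p = 0.0401) and Cbx7 in stomach (-0.71, SE 0.18, limma adjusted p = 0.0398), and they lost their calls in 9 and 8 of 13 alternatives. The calls of Cbx2 and Cbx6 were each lost in 7 of 13 alternatives, among them scaling to the 75th percentile (limma adjusted p = 0.0987 and 0.0969) and processed intensities (0.0737 and 0.0859). That of Cbx2 was also lost without the stomach array of mouse 1 (0.0897) or any 1 esophagus array (0.063 to 0.0839). That of Cbx6 was also lost without the stomach array of mouse 1 or 2 (0.102 and 0.0956) or the esophagus array of mouse 1 or 2 (0.0501 and 0.0823). Pcgf5 lost its call with scaling to the 75th percentile (0.0868). Cdkn2a differed by -0.80 and was not called (limma adjusted p = 0.113). Closest to Bmi1 were 4933427D06Rik (distance 0.06), Fryl (0.08) and Wbp4 (0.08).

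Mex3a encodes an RNA-binding protein with KH domains and a RING finger and marks slowly dividing intestinal progenitors. Its probe (chr3:88345168-88345227, mm9) read 7.79, 6.91 and 6.85 in esophagus and 7.11, 7.24 and 7.20 in stomach. The esophagus of mouse 1 held the highest value and that of mouse 4 the lowest, so the tissues overlapped, and the difference was 0.00 (95% interval -0.59 to 0.60, limma adjusted p = 0.998). Its relative Mex3b read 11.20, 11.26 and 10.90 in esophagus and 5.71, 5.62 and 6.60 in stomach, and it was higher in esophagus by 5.14 (SE 0.27, limma adjusted p = 1.3e-05). Mex3c differed by 0.39 (limma adjusted p = 0.456) and Mex3d by 0.70 (limma adjusted p = 0.129), and neither was called, so 1 of 3 relatives was called higher in esophagus, beside 7.15% of all gene names, and 2 of 3 without the stomach array of mouse 4. Closest to Mex3a were CJ301664 (distance 0.05), Usf3 (0.07) and LF199602 (0.08).

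Iqgap3 encodes a scaffold protein that binds the small GTPases Rac1 and Cdc42 and calmodulin, and it is expressed in dividing cells, including those of the gastric isthmus. Its probe (chr3:87924765-87924824, mm9) read 10.62, 11.35 and 11.96 in the stomach organoids of mice 1, 2 and 4 and 9.25, 10.56 and 10.93 in the esophagus organoids. The tissues overlapped, but every mouse had the higher value in stomach, with within-mouse differences of -1.37, -0.79 and -1.03. The difference of -1.06 (SE 0.48) was not called without a block (limma adjusted p = 0.231) and was called with the mouse number as a block (limma adjusted p = 0.0181). In the other 12 alternatives it was not called.

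**Figure D4:**
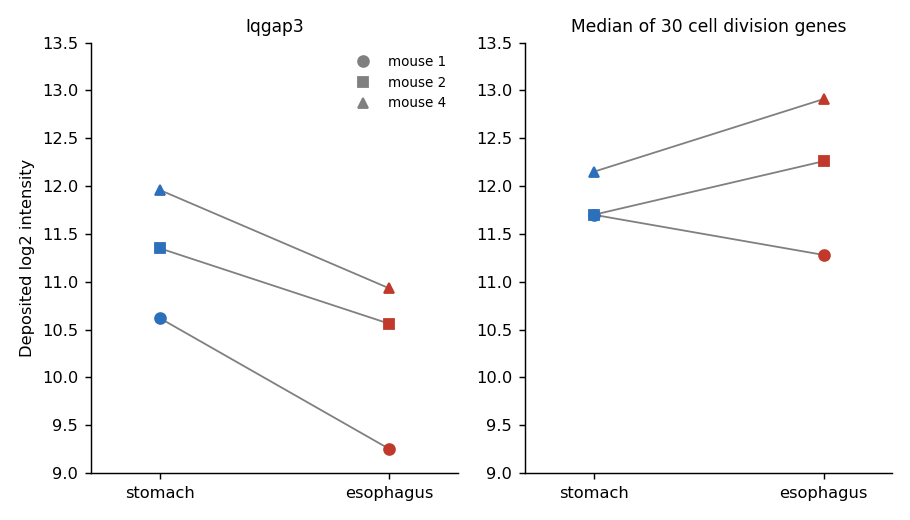
Deposited log2 intensity (y axis) of Iqgap3 (left) and the median over 30 cell division genes (right) in stomach and esophagus organoids, with a line joining the 2 arrays of each mouse number. Iqgap3 is lower in esophagus in all 3 mice, and the cell division median is lower in esophagus in mouse 1 alone.

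Iqgap3 and a list of 30 cell division genes were set side by side. The list's median log2 value was 11.70, 11.70 and 12.15 in the stomach organoids of mice 1, 2 and 4 and 11.28, 12.26 and 12.91 in the esophagus organoids. Within each tissue, mouse 4 had the highest and mouse 1 the lowest Iqgap3 value, and in esophagus the list's median followed the same order. No gene of the list was called by limma, beside 7.15% of all gene names called higher in esophagus and 7.7% higher in stomach. The unadjusted limma p was below 0.05 for 3 of the 30, and the smallest adjusted p was 0.102. Their median difference was 0.31, beside 0.03 over all gene names. Of the 30, Ccnb1 was called higher in esophagus with the block for mouse (limma adjusted p = 0.0384), and Top2a, Cdc20 and Prc1 without the esophagus array of mouse 1 (limma adjusted p = 0.0274, 0.0297 and 0.0263).

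Of 5 related genes (Iqgap1, Iqgap2, Cdc42, Rac1 and Anln), 1 was called higher in esophagus and 1 higher in stomach, beside 7.15% and 7.7% of all gene names. Iqgap2 read 8.67, 8.51 and 9.06 in stomach, was below the background limit in all 3 esophagus cultures, and was at least 13.8-fold higher in stomach (limma adjusted p = 1.01e-05). Iqgap1 differed by -0.50 and was not called (limma adjusted p = 0.129). The GTPase Rac1 was higher in esophagus by 1.08 (SE 0.19, limma adjusted p = 0.00767). The genes nearest to Iqgap3 were Map2k6 (distance 0.16), P4hb (0.25) and Cnp (0.26).

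The spread within a tissue was examined next. Of the 14 member probes well above background on all 3 stomach arrays, 11 had their highest stomach value in mouse 4, beside 43.4% of all such probes. The exceptions were both Prom1 probes and Mex3a. The 11 include every Cd44, Lrig1 and Bmi1 probe, and probes of the same gene are not independent measurements. The stomach array of mouse 4 is the one harvested on day 7, and what mouse or day contributed cannot be told apart. In esophagus the largest spread was that of Iqgap3, with 1.68 between the highest and the lowest array, followed by 1.47 for the Cd44 probe from base 1777.

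A list of other proposed epithelial stem markers was counted in the same way. Of its 39 genes, 11 were called higher in esophagus, 13 higher in stomach and 15 were not called, beside 7.15% and 7.7% of all gene names, and the median was -0.15, beside 0.03 over all gene names. Higher in esophagus by the largest fitted differences were the basal and hair follicle keratins Krt17, at least 2350-fold (limma adjusted p = 4.31e-08), and Krt15, 886-fold (limma adjusted p = 6.35e-06). Col17a1, a collagen of basal cell attachments, follows with at least 747-fold (limma adjusted p = 9.39e-08), and since that is a bound its order against Krt15 is not established. Higher in stomach by the largest differences were the water channel Aqp5, 877-fold (limma adjusted p = 5.57e-07), and the WNT receptor component Lgr5, at least 38.6-fold (limma adjusted p = 2.04e-05). Krt15 was well above background on only 1 of 3 stomach arrays and Aqp5 on 2 of 3 esophagus arrays, so their folds rest partly on values at background. The list was chosen with earlier results of these data known and includes genes that define each epithelium.

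**Figure D5:**
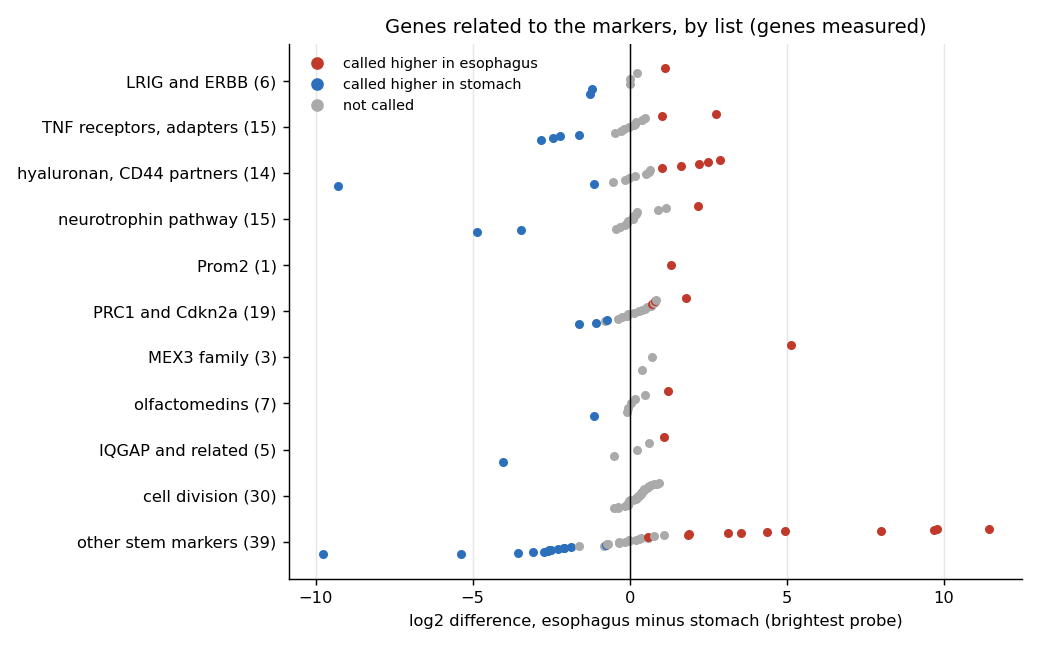
Esophagus minus stomach log2 difference (x axis) of the brightest probe of each gene related to the markers, by list (y axis, with the number of genes measured, members left out), colored by limma call. Calls in both directions occur in 8 of the 11 lists, cell division has none, and Prom2 and the MEX3 family have calls toward esophagus alone.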

How the data were processed

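Total RNA of the 6 organoid samples was labelled with Cy3 and hybridised to one-color Agilent mouse arrays with mm9 coordinates. The authors used Feature Extraction for image analysis (version 11.5.1.1 per the file headers), and the deposited scanner files hold raw and background-subtracted spot intensities. The deposited log2 values were background corrected and quantile normalized by the authors. Applying normexp to the median intensities with offset 15, then quantile normalization, gave the same log2 values to a median absolute difference of 0.00433, and the 2029 empty cells are the outlier-marked spots.

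Spots of a probe were averaged. In R 4.3.3, limma 3.58.1 (lmFit, eBayes) compared the tissues over 3 arrays each, with no blocking factor and with p-values adjusted by Benjamini-Hochberg over 55681 probes, and the same was done for differences between probes of a gene. Test code was checked on simulated data. The tests are two-sided, and exact permutation of 3 against 3 arrays could not go below 0.1. Where a probe was well above background on 0 arrays of a tissue, only a bound is given. Precision rests on the number of arrays.

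All 10 genes are described with every probe. Otherwise the text names, per list, the called genes that changed most, up to 2 per direction. It also names the members of the LRIG, prominin, MEX3, olfactomedin and IQGAP families. For each member except Lrig1 and Olfm4 the 3 nearest genes are named, by root mean square distance of centred values among 18474 bright genes. Further genes named beside a result (Sox10, Itgam, Ptprc, Trp63, Ntrk2, Ntrk3, Erbb4, Esrp1, Esrp2, Cdkn2a, Kdm2b, Cbx7, Col17a1 and 4 cell division genes) were chosen after their values were seen. Some genes counted in the lists are not reported here by name. The members and lists were chosen with earlier results of these data known. The labels give both tissues the same mouse numbers, and equal numbers were taken as the same animal. After subtraction of tissue means, esophagus and stomach arrays of equal number correlated with r = 0.025, 0.012 and -0.008, against -0.073 to 0.04 between numbers, so the values do not show a pairing.

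The 14 alternatives fitted for each probe were mean intensities with normexp (offset 16 or 50), 75th percentile scaling, quantile normalized processed intensities, dim probes left out, a variance trend with robust estimation, a block for mouse or for slide, and each array left out in turn. The slide block and the fit without the esophagus array of mouse 4, the only array of its slide, are the same fit, which leaves 13 distinct alternatives. The authors' own comparisons were not used here.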

Additional observations from a re-analysis of the deposited data

How the results depend on the processing

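Over 13 distinct alternatives, Ngfr, both Prom1 probes, Cd24a and the Tnfrsf19 probe from base 4377 kept their direction and call, and no called probe of the 10 genes changed sign. The count of member probes called, 8, was 5 with quantile normalized processed intensities, 9 with the replicate block for mouse, and 5 to 10 when single arrays were left out, the lowest without the stomach array of mouse 1 or 2. The count higher in esophagus, 4, was 2 with normexp offset 50, 1 with processed intensities and 1 to 6 with single arrays left out, the lowest without the stomach array of mouse 1 or 2. Of the probe pairs of the 10 genes, 2 were called, those of Prom1 and Tnfrsf19, beside 6.27% of all 21383 pairs. Each of the 2 has a probe at background in at least 1 tissue, so that the gap has no measured size. The count of called pairs was 0 with 75th percentile scaling and 1 to 2 with single arrays left out, the lowest without the esophagus array of mouse 2. The block for mouse changed the call of 3 member probes, given beside them. The 75th percentile scaling moved the median of all probes to 0.19. Among uncalled member values, 13 changed sign, all of Lrig1, Mex3a or Olfm4. For list genes and nearest genes, 2060 values kept their call and direction, 98 lost and 32 gained a call, and 113 uncalled ones changed sign. Bounds were lowest with normexp offset 50, at 2.73-fold for Tnfrsf1b, 215-fold for Spp1, 1.38-fold for Olfml2b, 6.54-fold for Iqgap2, 898-fold for Krt17, 317-fold for Col17a1 and 17.8-fold for Lgr5. Bounds under other settings and the fit of every probe pair were added after seeing the data. In that fit 2 pairs of the 10 genes were again called, beside 4.18% of 42286 pairs. The causes were not tested. Signal over background limits Olfm4, the Tnfrsf19 probe from base 1946, Prom1 in esophagus and Ngfr in stomach.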
